A study of Mus musculus with 9 samples.

Results

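The genes described are the chains of integrins and laminins, the nidogens Nid1 and Nid2, and the proteoglycans agrin (Agrn) and perlecan (Hspg2), in samples labelled as mouse pancreatic tumor cells, with and without the ubiquitin protease gene Usp22. They were chosen by gene symbol from the deposited expression table, as 13 integrin alpha chains, 7 integrin beta chains without the leukocyte chain Itgb2, 11 laminin chains and 4 other genes, which gave 35 of 24493 genes. The 28 members that averaged 1 TPM or more across all 9 samples were tested, and 7 stood below that level (Itga8, Itga10, Itga11, Itgb8, Lama1, Lama2 and Lamc3). TPM, transcript abundance scaled to the same total in every library, corrects for transcript length, so levels of different genes can be set side by side.

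The samples formed 3 groups of 3: Usp22-KOA and Usp22-KOB, a pair of knockouts whose letters the labels do not explain, and WT. Their shared origin was 1 tumor cell clone, 6419c5, of the C57BL/6 strain, implanted under the skin and taken at a late tumor stage, so each genotype has the limits of a single clone. The labels give no animal for a sample. The p-values therefore set group differences against the scatter of these samples alone, and part of that scatter may be technical. No label states whether or by what means host cells were removed, so RNA of stromal cells and leukocytes may be part of each sample. Polyadenylated RNA was sequenced. Read depth is unknown, since TPM does not retain it.

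Integrins are receptors of the cell surface built from an alpha and a beta chain, and the pair decides whether they bind laminin, collagen, or proteins with the short motif RGD such as fibronectin and vitronectin. Laminins are trimers of an alpha, a beta and a gamma chain, and they polymerise into the sheet on which a basement membrane is assembled. Nidogens and perlecan tie that sheet to the network of type IV collagen. In pancreatic ducts and in carcinomas laminin with the Lama3 and Lamb3 chains and the integrin pair of Itga6 and Itgb4 anchor epithelial cells at hemidesmosomes.

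Promoter sequences are shown for the members with the clearest differences between groups for which a RefSeq promoter (GRCm38.p6) was at hand. They run from 250 bases before to 50 bases after the start, 5′ to 3′ along the gene, and capitals mark motif matches on either strand. The motifs searched were the E-box CANNTG, the TEAD site GGAATG, the GC box GGGCGG, the AP-1 site TGANTCA and the TATA box TATAAA. Lamb3, chr1:193301744-193302043 on the plus strand, holds 3 E-boxes. Lamb2, chr9:108479612-108479911 on the plus strand, holds 1. Nid1, chr13:13437352-13437651 on the plus strand, holds 1 TEAD site and 1 GC box. Itga5, chr15:103366742-103367041 on the minus strand, holds 2 GC boxes and 2 E-boxes. Itgb6, chr2:60722554-60722853 on the minus strand, holds 3 E-boxes.
Lamb3: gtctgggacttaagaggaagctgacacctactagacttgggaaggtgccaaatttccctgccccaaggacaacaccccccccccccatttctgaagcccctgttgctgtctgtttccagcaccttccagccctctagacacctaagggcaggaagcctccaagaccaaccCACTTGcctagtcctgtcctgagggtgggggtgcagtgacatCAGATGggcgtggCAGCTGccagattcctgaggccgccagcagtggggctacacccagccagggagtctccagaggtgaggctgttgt
Lamb2: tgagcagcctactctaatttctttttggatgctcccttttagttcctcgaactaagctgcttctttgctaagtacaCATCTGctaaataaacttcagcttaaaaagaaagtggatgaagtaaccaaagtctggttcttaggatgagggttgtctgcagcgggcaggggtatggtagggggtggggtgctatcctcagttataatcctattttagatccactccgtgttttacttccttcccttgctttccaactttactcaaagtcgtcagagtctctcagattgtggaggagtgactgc
Nid1: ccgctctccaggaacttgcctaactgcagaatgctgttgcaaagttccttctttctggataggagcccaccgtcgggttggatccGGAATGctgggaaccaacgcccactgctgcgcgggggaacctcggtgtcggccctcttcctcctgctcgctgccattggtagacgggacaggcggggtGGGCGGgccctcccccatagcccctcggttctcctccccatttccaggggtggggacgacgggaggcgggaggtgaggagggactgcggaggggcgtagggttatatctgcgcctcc
Itga5: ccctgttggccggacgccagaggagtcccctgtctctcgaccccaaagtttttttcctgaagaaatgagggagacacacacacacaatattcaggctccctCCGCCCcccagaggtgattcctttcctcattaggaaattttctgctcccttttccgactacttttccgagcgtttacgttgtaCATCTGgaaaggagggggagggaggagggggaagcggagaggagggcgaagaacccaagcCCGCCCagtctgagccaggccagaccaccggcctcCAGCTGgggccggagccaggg
Itgb6: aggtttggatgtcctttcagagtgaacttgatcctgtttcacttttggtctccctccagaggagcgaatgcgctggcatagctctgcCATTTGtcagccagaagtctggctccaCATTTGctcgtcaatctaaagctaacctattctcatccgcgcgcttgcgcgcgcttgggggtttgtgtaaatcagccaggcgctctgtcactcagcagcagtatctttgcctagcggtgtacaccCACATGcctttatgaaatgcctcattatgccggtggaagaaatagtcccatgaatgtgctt

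Of the 35 members, 24 had a promoter in that set, in 28 entries. An E-box stood in 21 of the 28 entries, which is 75%, against 72.3% of all 32851 promoters. A GC box stood in 15 of the 28 entries (53.6%), against 35.7% of all promoters. TEAD sites were found in 4 of the 28 entries, those of Itga10, Itgb1, Lamb3 (in its other promoter) and Nid1, against 14.7% of all promoters. AP-1 sites were found in 2 entries, of Itga3 and Itga9, against 7.81% of all, and the TATA box in 0 entries, against 13.6% of all. These matches describe letters in the window and were not tested against the values.

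Usp22, the targeted gene, was read first. It stood at 9.77, 8.46 and 10.1 TPM in Usp22-KOA samples, 11.8, 14.9 and 14.1 TPM in Usp22-KOB samples and 55.1, 54.5 and 56.4 TPM in WT samples. The groups did not overlap, and the exact two-sided permutation test of both knockouts against WT gave p = 0.0119, the smallest that 84 splits allow. Of 9 epithelial markers, 1 rose and 7 fell in Usp22-KOA and 0 rose and 5 fell in Usp22-KOB, with summed levels of 6258 to 7038 TPM in Usp22-KOA samples, 6833 to 8354 TPM in Usp22-KOB samples and 7907 to 8410 TPM in WT samples. The keratins Krt8, Krt18 and Krt19 were abundant in every sample, with Krt8 at 2355 to 2611 TPM in Usp22-KOA samples, 2425 to 3001 TPM in Usp22-KOB samples and 2379 to 2585 TPM in WT samples. Krt18 stood at 52.5% of the WT mean in Usp22-KOA and 103% in Usp22-KOB. Epcam was at 24.7 to 54.4 TPM in Usp22-KOA samples, 25.4 to 35.8 TPM in Usp22-KOB samples and 364 to 400 TPM in WT samples. Markers of other cells were present as well. The 10 summed pan-leukocyte markers reached 961, 797 and 478 TPM in Usp22-KOA samples, 1687, 1556 and 817 TPM in Usp22-KOB samples and 408, 594 and 336 TPM in WT samples, so replicate 3 of each knockout held least. Correlations of log2(TPM + 1) across genes were 0.972 to 0.985 within a group and 0.885 to 0.945 between groups. Exons of 8 tested members overlap exons of another annotated gene, and no source used here states whether strand was used in quantification, so reads of such a pair may be shared.

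Differences are given on the log2(TPM + 1) scale as log2 difference ± SE, with adjusted p-values from limma with Benjamini-Hochberg adjustment over 13843 genes, and a gene is said to have risen or fallen at an adjusted p under 0.05. On this scale the change of a low gene is understated. In Usp22-KOA against WT, 23 of the 28 tested members passed, where 56.3% of all tested genes passed. Of these, 9 were higher, against 29.4% of all genes, and 14 lower, against 26.9%. In Usp22-KOB against WT, 11 of 28 passed, against 37.1% of all genes, with 5 higher (18.7% of all genes) and 6 lower (18.4%). The share in Usp22-KOB is therefore near the background. Without Usp22-KOB replicate 3, 17 members passed instead, 7 higher and 10 lower, which is 60.7% of the members against 40.5% of all genes, with Hspg2, Itga3, Itga4, Lama4 and Lama5 among those added. For both knockouts averaged against WT, 20 of 28 passed, against 50.0% of all genes, with 7 higher (25.9% of all genes) and 13 lower (24.1%). That count was 7 when the 6 knockout samples were treated as 1 group, so that their own difference counted as spread. Usp22-KOA and Usp22-KOB differed from each other in 20 of 28 members, against 51.7% of all genes, with 8 higher (27.5% of all genes) and 12 lower (24.2%) in Usp22-KOA.

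Larger differences were counted as calls of at least 2-fold. They held for 11 of the 28 members in Usp22-KOA, against 14.4% of all genes, and for 3 in Usp22-KOB, against 8.63%. For both knockouts averaged they held for 6 members, against 9.15%, and between Usp22-KOA and Usp22-KOB for 9 members, against 11.8%. Samples of Usp22-KOA and WT did not overlap for 24 of 28 members, where 65.3% of all genes did not overlap. The corresponding numbers were 16 of 28 (49.1% of all genes) for Usp22-KOB and WT, 11 of 28 (29.7%) for both knockouts and WT, and 20 of 28 (58.3%) for Usp22-KOA and Usp22-KOB. The members' median log2 difference from WT was -0.28 for Usp22-KOA, where that of all tested genes was 0.019. For Usp22-KOB it was -0.0054, where that of all genes was -0.0075. The median size of the difference, regardless of sign, was 0.75 for members and 0.37 for all genes in Usp22-KOA. In Usp22-KOB it was 0.32 for members and 0.23 for all genes. Both knockouts were compared with the same WT samples.

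**Figure D1:**
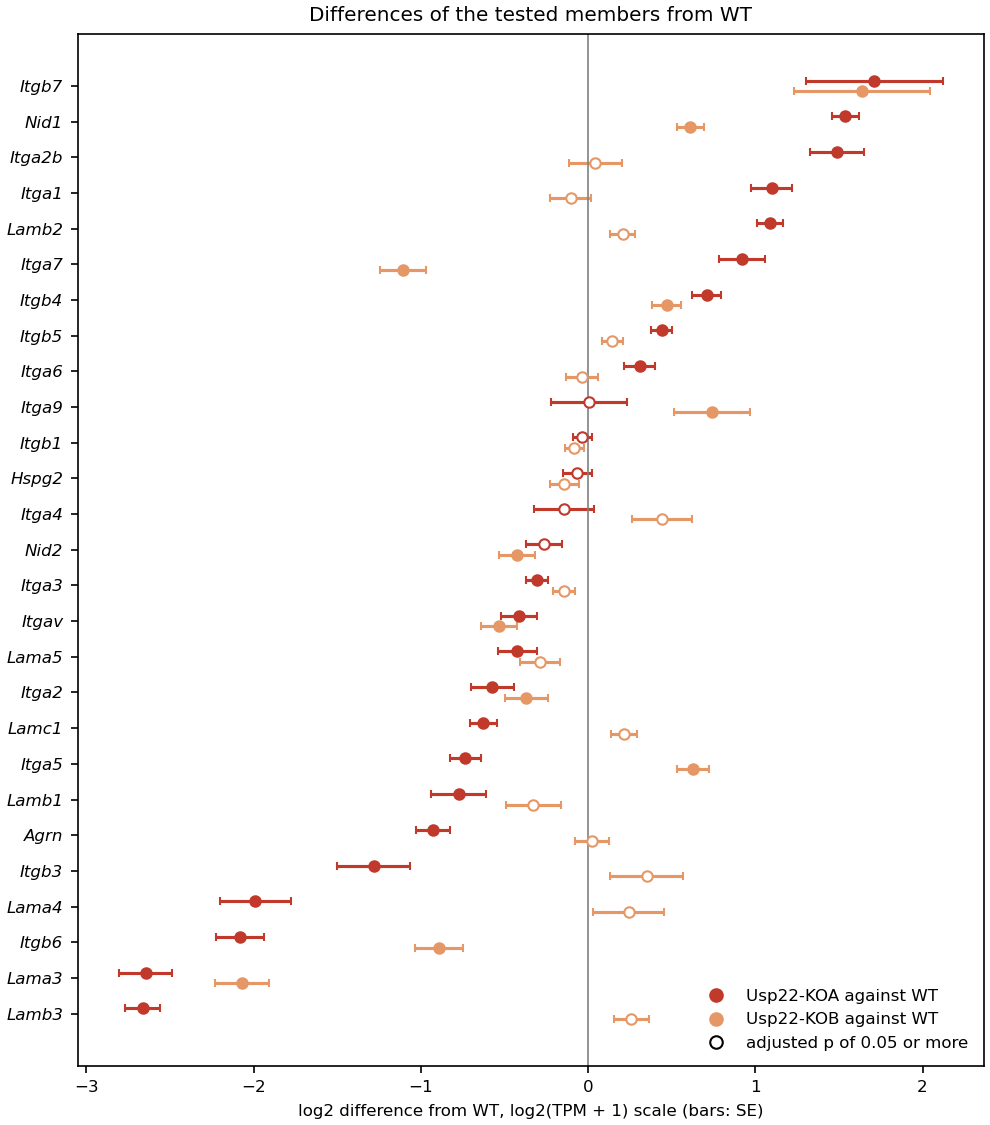
Log2 differences from WT of the tested members named in the text (x axis, log2(TPM + 1) scale, bars are SE) for Usp22-KOA and Usp22-KOB, ordered by the difference in Usp22-KOA; open circles did not pass the test. Lamb3 and Lama4 lie far left in Usp22-KOA and near 0 in Usp22-KOB, while Lama3 and Itgb6 lie left and Nid1 and Itgb7 right of 0 in both.

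Lama3 and Lamb3, chains of the laminin beneath epithelial hemidesmosomes, both fell in Usp22-KOA, and of this pair Lama3 alone passed in Usp22-KOB. Lama3 (chromosome 18, 12333819 to 12583013 in GRCm38) was at 0.301, 0.479 and 0.597 TPM in Usp22-KOA samples, 0.854, 1.15 and 1.56 TPM in Usp22-KOB samples and 8.43, 7.26 and 8.65 TPM in WT samples. Every knockout sample lay below every WT sample, and the means were 5.66% of WT in Usp22-KOA and 14.6% of WT in Usp22-KOB. The log2 difference from WT was -2.64 ± 0.16 in Usp22-KOA (adjusted p = 1.69e-06) and -2.07 ± 0.16 in Usp22-KOB (adjusted p = 2.81e-05). The difference of -0.58 ± 0.16 between Usp22-KOA and Usp22-KOB passed as well (adjusted p = 0.0146), but not with a pseudocount of 5 or after quantile normalization (adjusted p = 0.0514 and 0.0625).

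Lamb3, the beta chain that joins Lama3 (chromosome 1, 193207699 to 193343878), stood at 4.09, 4.14 and 3.29 TPM in Usp22-KOA samples, 31.8, 36.5 and 38.8 TPM in Usp22-KOB samples and 29.2, 27.4 and 32.4 TPM in WT samples. Usp22-KOA was apart from the other samples, at 13.0% of the WT mean, and Usp22-KOB overlapped WT. Lamb3 fell by 2.66 ± 0.11 in Usp22-KOA (adjusted p = 1.98e-07), while the difference in Usp22-KOB was 0.26 ± 0.11 (adjusted p = 0.0864, 95% interval 0.02 to 0.50). Between Usp22-KOA and Usp22-KOB it differed by -2.92 ± 0.11 (adjusted p = 2.97e-07).

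Some other epithelial markers fell beside Lama3 in both knockouts, whereas Lamb3 fell in Usp22-KOA alone. Cldn4, a tight junction claudin, was at 2.55% of the WT mean in Usp22-KOA and 18.2% in Usp22-KOB, and Cldn7, another claudin, at 12.5% in Usp22-KOA and 17.6% in Usp22-KOB. Ocln, occludin, was at 4.31% of the WT mean in Usp22-KOA and 16.7% in Usp22-KOB. These 3 genes and Epcam fell in both knockouts, as Lama3 and Itgb6 did. Krt7, a keratin of ducts, was at 16.2% in Usp22-KOA and 72.1% in Usp22-KOB and fell in both, while Krt19 rose in Usp22-KOA, to 136% of the WT mean. Krt18 and the marker Cdh1 fell in Usp22-KOA and did not pass in Usp22-KOB. Cdh1 was at 70.2% of the WT mean in Usp22-KOA and 88.3% in Usp22-KOB. Krt8 passed in neither knockout, and Krt19 did not pass in Usp22-KOB. The part of a changed share or state of epithelial cells in the results for Lama3, Lamb3 and Itgb6 was not tested.

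Lamc1, the widespread gamma chain, was at 44.0, 49.6 and 45.4 TPM in Usp22-KOA samples, 77.7, 80.8 and 93.4 TPM in Usp22-KOB samples and 69.6, 71.5 and 74.8 TPM in WT samples. Lamc1 fell by 0.63 ± 0.08 in Usp22-KOA (adjusted p = 0.000134), and in Usp22-KOB the difference was 0.22 ± 0.08 (adjusted p = 0.0571, 0.0417 without Usp22-KOB replicate 1).

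Lamb2, a beta chain known from vessel, kidney and neuromuscular basement membranes, was the 1 laminin chain that rose. It was at 86.6, 84.1 and 93.9 TPM in Usp22-KOA samples, 43.6, 46.1 and 52.9 TPM in Usp22-KOB samples and 41.0, 41.8 and 40.0 TPM in WT samples. The log2 difference from WT was 1.09 ± 0.08 in Usp22-KOA (adjusted p = 4.21e-06), which is 215% of the WT mean in TPM, and 0.21 ± 0.08 in Usp22-KOB (adjusted p = 0.0616, 0.0356 without Usp22-KOB replicate 1). The difference between Usp22-KOA and Usp22-KOB was 0.88 ± 0.08 (adjusted p = 2.41e-05). Lamb1, the common beta chain, was at 27.0, 31.2 and 18.4 TPM in Usp22-KOA samples, 32.2, 34.4 and 36.5 TPM in Usp22-KOB samples and 43.8, 39.8 and 46.6 TPM in WT samples. Every knockout sample was below every WT sample. Lamb1 fell by 0.77 ± 0.16 in Usp22-KOA (adjusted p = 0.00316), and its difference of -0.33 ± 0.16 in Usp22-KOB did not pass (adjusted p = 0.149), except without Usp22-KOA replicate 3 (adjusted p = 0.0188).

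Lama5, the most widespread laminin alpha chain of epithelia, was the most abundant laminin alpha mRNA in every sample. It was at 79.8, 80.7 and 86.2 TPM in Usp22-KOA samples, 78.4, 86.6 and 109 TPM in Usp22-KOB samples and 124, 105 and 104 TPM in WT samples. Its log2 difference from WT was -0.42 ± 0.12 in Usp22-KOA (adjusted p = 0.0128, 0.0510 without WT replicate 1) and -0.29 ± 0.12 in Usp22-KOB (adjusted p = 0.0843, 0.00750 without Usp22-KOB replicate 3). The Lama5 difference of -0.14 ± 0.12 between Usp22-KOA and Usp22-KOB did not pass (adjusted p = 0.364). Lama4, the alpha chain of endothelial and mesenchymal basement membranes, was at 0.318, 0.293 and 0.303 TPM in Usp22-KOA samples, 6.64, 5.97 and 3.33 TPM in Usp22-KOB samples and 3.96, 3.65 and 5.04 TPM in WT samples. Usp22-KOA lay at 7.23% of the WT mean and apart from all other samples. Lama4 fell by 1.99 ± 0.21 in Usp22-KOA (adjusted p = 5.17e-05), and its difference in Usp22-KOB was 0.24 ± 0.21 (adjusted p = 0.405, 0.0296 without Usp22-KOB replicate 3).

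Sums of stromal cell markers, like Lama4, were lowest in Usp22-KOA. The 10 summed endothelial markers reached 10.9 to 17.5 TPM in Usp22-KOA samples, 38.3 to 57.7 TPM in Usp22-KOB samples and 49.2 to 66.2 TPM in WT samples, with all 9 tested ones lower in Usp22-KOA than in WT. The 9 summed fibroblast markers were at 191 to 234 TPM in Usp22-KOA samples, 816 to 1252 TPM in Usp22-KOB samples and 509 to 930 TPM in WT samples, and 6 of 9 fell in Usp22-KOA. The 9 summed pericyte and smooth muscle markers were at 10.4 to 10.8 TPM in Usp22-KOA samples, 33.9 to 41.0 TPM in Usp22-KOB samples and 50.4 to 57.5 TPM in WT samples. Of the 5 tested ones, 4 fell in Usp22-KOA and 3 in Usp22-KOB. In Usp22-KOB 1 of 9 tested endothelial markers fell, and 4 of 9 fibroblast markers rose. Their part in the Lama4 result was not tested, and in bulk samples fewer cells of a type and less RNA per cell cannot be told apart.

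The low laminin chains were Lama1, Lama2 and Lamc3. Lama2, the alpha chain of muscle and peripheral nerve, was at 0.0353 to 0.0936 TPM in Usp22-KOA samples, 0.563 to 0.799 TPM in Usp22-KOB samples and 0.371 to 0.600 TPM in WT samples. Lama1, known from the embryonic basement membrane, was at 0 to 0.0261 TPM in Usp22-KOA samples, 0.125 to 0.272 TPM in Usp22-KOB samples and 0.181 to 0.386 TPM in WT samples. Lamc3 did not exceed 0.0477 TPM in any sample. With no filter on low values, Lama2 and Lama1 were called lower in Usp22-KOA (log2 difference -0.46 and -0.32, adjusted p = 0.00159 and 0.00766).

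**Figure D2:**
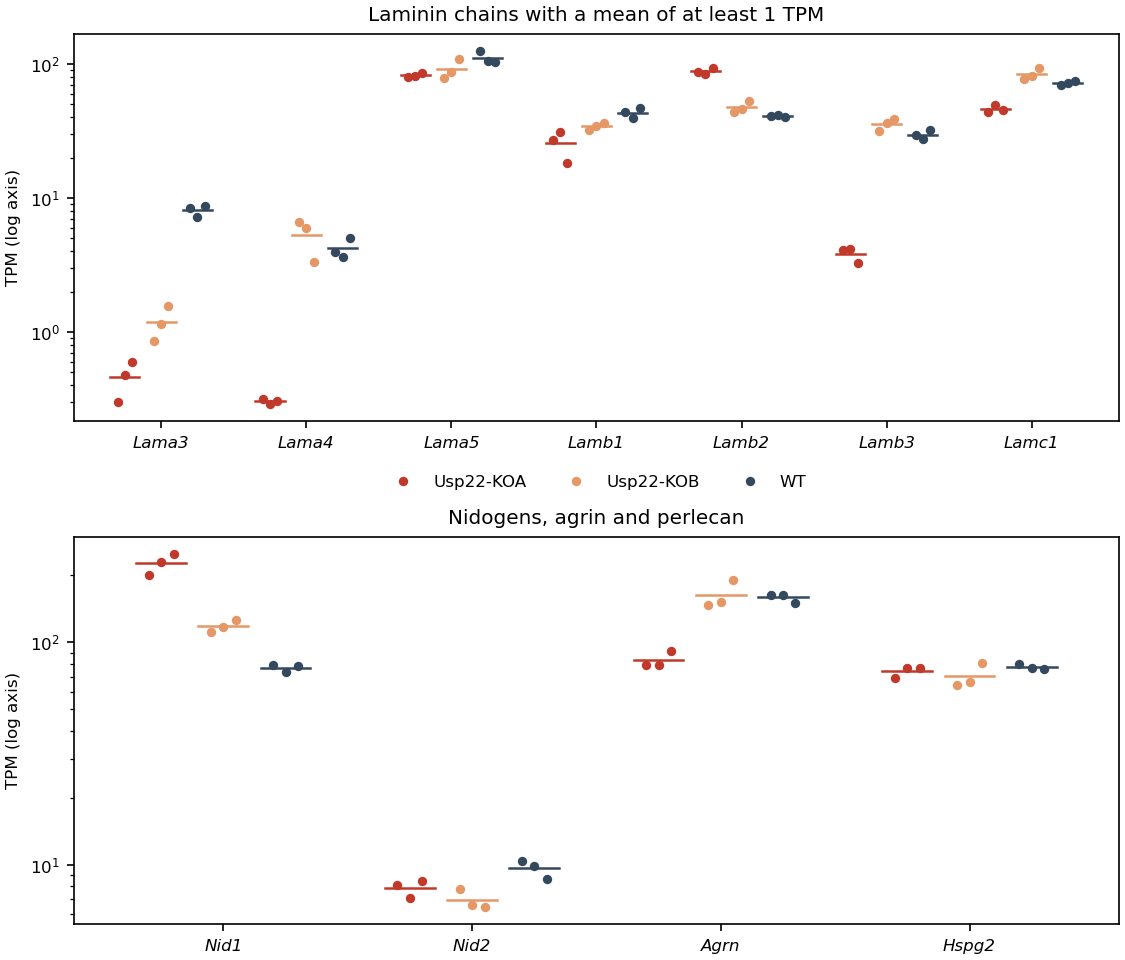
TPM per sample (log axis) of tested laminin chains and of the nidogens, agrin and perlecan; points are samples and bars group means, n = 3 each. Lama3 is lower in both knockouts than in WT, Lama4 and Lamb3 sit low in Usp22-KOA, and Nid1 is highest in Usp22-KOA and lowest in WT.

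Since TPM corrects for length, the make-up of the laminin mRNA can be given as each chain's share of the summed TPM of its class, as a description with no test. Lamb2 made up 75.1% ± 5.58 of beta chain mRNA in Usp22-KOA, 40.4% ± 0.962 in Usp22-KOB and 36.0% ± 2.39 in WT (SD, n = 3 each). Lamb3 made up 3.27% ± 0.359 in Usp22-KOA, 30.4% ± 0.810 in Usp22-KOB and 26.0% ± 1.10 in WT (SD, n = 3 each). The summed beta chain level was nonetheless close between groups, at 116 to 119 TPM in Usp22-KOA samples, 108 to 128 TPM in Usp22-KOB samples and 109 to 119 TPM in WT samples. Lama5 held 99.0% ± 0.162 of alpha chain mRNA in Usp22-KOA, 92.3% ± 2.51 in Usp22-KOB and 89.4% ± 1.58 in WT (SD, n = 3 each), and Lama3 held 0.549% in Usp22-KOA, 1.19% in Usp22-KOB and 6.57% in WT.

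**Figure D3:**
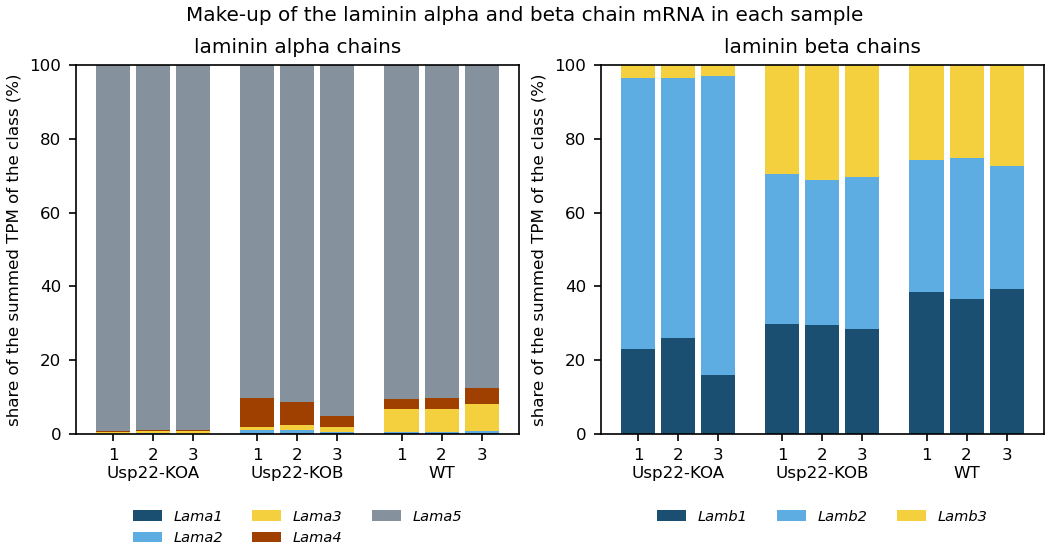
Share of each chain in the summed TPM of the laminin alpha and beta classes (%), stacked per sample for Usp22-KOA, Usp22-KOB and WT. Lamb2 fills 70.4% to 81.3% of the beta class in Usp22-KOA and 33.6% to 38.4% in WT.

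Nid1, the nidogen that bridges laminin and type IV collagen (chromosome 13, 13437551 to 13512269), rose in both knockouts. It was at 201, 229 and 249 TPM in Usp22-KOA samples, 111, 118 and 126 TPM in Usp22-KOB samples and 79.4, 73.5 and 78.2 TPM in WT samples. The 3 groups did not overlap, and the means were 294% of WT in Usp22-KOA and 154% of WT in Usp22-KOB. Its log2 difference from WT was 1.54 ± 0.08 in Usp22-KOA (adjusted p = 7.74e-07) and 0.61 ± 0.08 in Usp22-KOB (adjusted p = 0.000601), and the difference between Usp22-KOA and Usp22-KOB was 0.93 ± 0.08 (adjusted p = 2.54e-05).

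Nid2, the other nidogen, fell in Usp22-KOB. It was at 8.15, 7.06 and 8.46 TPM in Usp22-KOA samples, 7.79, 6.59 and 6.50 TPM in Usp22-KOB samples and 10.4, 9.90 and 8.68 TPM in WT samples. Its log2 difference from WT was -0.26 ± 0.11 in Usp22-KOA (adjusted p = 0.0643, 0.0437 without WT replicate 3) and -0.42 ± 0.11 in Usp22-KOB (adjusted p = 0.0144, 0.0553 without Usp22-KOB replicate 2 and 0.0575 without WT replicate 1). Every knockout sample was below every WT sample, and the difference of 0.16 ± 0.11 between Usp22-KOA and Usp22-KOB did not pass (adjusted p = 0.246). Agrn, the heparan sulfate proteoglycan that organizes synaptic basement membranes, was at 79.4, 79.5 and 91.8 TPM in Usp22-KOA samples, 147, 152 and 191 TPM in Usp22-KOB samples and 164, 164 and 150.2 TPM in WT samples. Agrn fell by 0.93 ± 0.10 in Usp22-KOA (adjusted p = 6.42e-05), to 52.4% of the WT mean, and overlapped WT in Usp22-KOB (0.03 ± 0.10, adjusted p = 0.867). Hspg2, perlecan, was at 69.2 to 77.0 TPM in Usp22-KOA samples, 64.5 to 81.0 TPM in Usp22-KOB samples and 76.3 to 80.4 TPM in WT samples. Hspg2 passed in neither knockout, with log2 differences from WT of -0.07 ± 0.09 (95% interval -0.26 to 0.13) in Usp22-KOA and -0.14 ± 0.09 (95% interval -0.34 to 0.05) in Usp22-KOB, but was called lower in Usp22-KOB without its replicate 3 (adjusted p = 0.0149).

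Among the laminin-binding integrin alpha chains, Itga6 and Itga7 rose and Itga3 fell in Usp22-KOA. Itga6, the partner of Itgb4 in hemidesmosomes, was at 161, 178 and 189 TPM in Usp22-KOA samples, 122, 138 and 157 TPM in Usp22-KOB samples and 149, 136 and 140.1 TPM in WT samples. The groups of Usp22-KOA and WT were apart, and Usp22-KOB overlapped WT, with log2 differences from WT of 0.31 ± 0.09 in Usp22-KOA (adjusted p = 0.0197) and -0.04 ± 0.09 in Usp22-KOB (adjusted p = 0.793). The call of Itga6 in Usp22-KOA was lost without Usp22-KOA replicate 2 or 3 or WT replicate 2 or 3 and after quantile normalization (adjusted p = 0.0547 to 0.0705). Itga3, which pairs with Itgb1, was at 109, 116 and 107 TPM in Usp22-KOA samples, 117, 119 and 137 TPM in Usp22-KOB samples and 137, 136 and 136 TPM in WT samples. It fell by 0.30 ± 0.06 in Usp22-KOA (adjusted p = 0.00323), and the difference in Usp22-KOB was -0.14 ± 0.06 (adjusted p = 0.114, 0.00798 without Usp22-KOB replicate 3). The Itga3 difference of -0.16 ± 0.06 between Usp22-KOA and Usp22-KOB did not pass (adjusted p = 0.0637).

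Itga7, a laminin receptor best known from muscle (chromosome 10, 128933818 to 128958282), moved in opposite directions. It was at 19.7, 16.4 and 19.8 TPM in Usp22-KOA samples, 2.999, 3.94 and 4.55 TPM in Usp22-KOB samples and 9.58, 8.32 and 10.1 TPM in WT samples. The 3 groups did not overlap, with WT between the knockouts. Itga7 rose by 0.92 ± 0.14 in Usp22-KOA (adjusted p = 0.000399) and fell by 1.11 ± 0.14 in Usp22-KOB (adjusted p = 0.000415), and the difference between Usp22-KOA and Usp22-KOB was 2.03 ± 0.14 (adjusted p = 5.75e-06). The 8 summed skeletal muscle markers were at 2.68 to 3.80 TPM in Usp22-KOA samples, 0.797 to 4.18 TPM in Usp22-KOB samples and 2.54 to 5.03 TPM in WT samples. Of these markers 2 were tested, and neither was called in either knockout against WT. Between Usp22-KOA and Usp22-KOB 1 of the 2 was called, higher in Usp22-KOA as Itga7 was. Myh4, Mb and Pax7 were listed at 0 in all Usp22-KOA samples, Mb in all Usp22-KOB samples and Pax7 in all WT samples. Their part in the Itga7 result was not tested.

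The collagen-binding chains Itga1 and Itga2 are neighbours on chromosome 13, 20995 bases apart on the same strand, and differed in direction in Usp22-KOA. Itga1 was at 67.8, 84.9 and 90.6 TPM in Usp22-KOA samples, 32.2, 32.6 and 39.0 TPM in Usp22-KOB samples and 39.3, 39.0 and 33.3 TPM in WT samples. Itga1 rose by 1.10 ± 0.12 in Usp22-KOA (adjusted p = 6.51e-05), to 218% of the WT mean, and overlapped WT in Usp22-KOB (-0.10 ± 0.12, adjusted p = 0.541). Itga2 was at 26.1, 35.9 and 36.2 TPM in Usp22-KOA samples, 33.9, 36.5 and 42.2 TPM in Usp22-KOB samples and 50.6, 49.2 and 46.1 TPM in WT samples. Every knockout sample had less Itga2 than every WT sample, with log2 differences of -0.57 ± 0.13 in Usp22-KOA (adjusted p = 0.00442) and -0.37 ± 0.13 in Usp22-KOB (adjusted p = 0.0497). The call in Usp22-KOB sat at the threshold and was lost without Usp22-KOA replicate 2, Usp22-KOB replicate 1 or 2, or any WT replicate (adjusted p = 0.0542 to 0.150).

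Below the filter, Itga11, the collagen receptor of fibroblasts, was at 0, 0.0546 and 0.0774 TPM in Usp22-KOA samples, 0.971, 1.17 and 0.814 TPM in Usp22-KOB samples and 0.837, 0.729 and 0.838 TPM in WT samples. With no filter its log2 difference was -0.79 in Usp22-KOA (adjusted p = 8.69e-05), beside the fibroblast marker sums given above, whose part was not tested. Itga10, a collagen receptor of cartilage, was at 0.606 to 0.828 TPM in Usp22-KOA samples, 0.676 to 1.08 TPM in Usp22-KOB samples and 0.817 to 0.921 TPM in WT samples, and was called in neither knockout.

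Itga5, the fibronectin receptor chain (chromosome 15, 103344286 to 103366763), was the other member with opposite calls. It was at 20.0, 20.7 and 16.5 TPM in Usp22-KOA samples, 46.7, 50.5 and 54.0 TPM in Usp22-KOB samples and 31.9, 30.4 and 34.3 TPM in WT samples. The 3 groups were apart, with WT in the middle. Itga5 fell by 0.73 ± 0.09 in Usp22-KOA (adjusted p = 0.000168) and rose by 0.63 ± 0.09 in Usp22-KOB (adjusted p = 0.00114), and Usp22-KOA was below Usp22-KOB by -1.36 ± 0.09 (adjusted p = 6.86e-06). The fibroblast marker sums given above had the same order of groups, with Usp22-KOB and WT overlapping. Their order of samples matched that of Itga5 within Usp22-KOA and WT and was opposite within Usp22-KOB. The part of fibroblasts in the Itga5 result was not tested. Itgav, whose product pairs with several beta chains to bind vitronectin and latent TGF-beta, was at 52.6, 59.3 and 64.4 TPM in Usp22-KOA samples, 47.7, 52.3 and 62.5 TPM in Usp22-KOB samples and 82.1, 77.1 and 75.9 TPM in WT samples. It fell in both, by 0.41 ± 0.11 in Usp22-KOA (adjusted p = 0.00855) and by 0.53 ± 0.11 in Usp22-KOB (adjusted p = 0.00441). Itga8, another chain that binds RGD proteins, did not exceed 0.207 TPM in any sample.

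Itga2b, the fibrinogen receptor chain of platelets, was at 6.46, 5.01 and 4.33 TPM in Usp22-KOA samples, 1.32, 1.34 and 1.18 TPM in Usp22-KOB samples and 0.924, 1.31 and 1.44 TPM in WT samples. Usp22-KOA lay above all other samples, at 431% of the WT mean, with a log2 difference of 1.49 ± 0.16 (adjusted p = 5.49e-05), and Usp22-KOB overlapped WT (0.04 ± 0.16, adjusted p = 0.853). Of the defining platelet genes, Gp1ba was at 1.40, 1.49 and 1.58 TPM in Usp22-KOA samples, 0.644, 0.662 and 0.435 TPM in Usp22-KOB samples and 0.867, 0.485 and 0.526 TPM in WT samples. It too was highest in Usp22-KOA, but stood below the filter and was not tested. Ppbp was at 68.2% of the WT mean in Usp22-KOA and 344% in Usp22-KOB, and Gp1bb at 47.1% in Usp22-KOA and 141% in Usp22-KOB. Of the 8 platelet markers, 2 were tested, with 0 called in Usp22-KOA and 2 higher in Usp22-KOB against WT. Gp9 was at most 0.161 TPM in Usp22-KOA, 0.306 TPM in Usp22-KOB and 0.293 TPM in WT, and Gp6 was listed at 0 in all Usp22-KOA and WT samples. The 8 summed megakaryocyte and platelet markers, mostly Pf4, were at 139.8 to 319 TPM in Usp22-KOA samples, 294 to 548 TPM in Usp22-KOB samples and 183 to 210.3 TPM in WT samples. The 8 summed mast cell markers were at 2497, 1959 and 1203 TPM in Usp22-KOA samples, 129, 110.4 and 95.5 TPM in Usp22-KOB samples and 186, 171 and 152 TPM in WT samples, and all 8 rose in Usp22-KOA. The mast cell sum was lower in every Usp22-KOB sample than in every WT sample, whereas Itga2b overlapped there. Most of the WT sum was the marker Mcpt4, with means of 55.9 TPM in Usp22-KOB and 160 TPM in WT. Of the 8 mast cell markers, 4 rose and 1 fell in Usp22-KOB against WT. Itga2b and the mast cell sum had the same order of samples within Usp22-KOA and the opposite order within WT. Within WT the order of the sum was that of Mcpt4, its most abundant marker there, at 177, 159 and 146 TPM. The part of platelets or mast cells in the result was not tested.

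Itga4, a leukocyte chain that binds VCAM-1 and fibronectin, was at 6.26, 6.15 and 5.08 TPM in Usp22-KOA samples, 9.93, 11.1 and 7.11 TPM in Usp22-KOB samples and 7.37, 7.38 and 5.10 TPM in WT samples. It passed in neither knockout against WT (-0.15 ± 0.18, adjusted p = 0.512 in Usp22-KOA, and 0.44 ± 0.18, adjusted p = 0.0821 in Usp22-KOB), but did in Usp22-KOB without its replicate 3 (adjusted p = 0.0197). Usp22-KOA was below Usp22-KOB by -0.59 ± 0.18 (adjusted p = 0.0219), which was lost without Usp22-KOA replicate 3 or Usp22-KOB replicate 1 or 2 (adjusted p = 0.0681 to 0.0838). Itga9, a receptor chain for tenascin-C and osteopontin, was at 2.32, 2.34 and 1.10 TPM in Usp22-KOA samples, 4.38, 4.37 and 2.74 TPM in Usp22-KOB samples and 1.47, 1.92 and 2.21 TPM in WT samples. It rose by 0.74 ± 0.23 in Usp22-KOB (adjusted p = 0.0313), a call lost without Usp22-KOB replicate 1 or 2 or WT replicate 1 or 2 (adjusted p = 0.0674 to 0.104), and the difference in Usp22-KOA was 0.01 ± 0.23 (adjusted p = 0.985). Replicate 3 of Usp22-KOB was lowest for both genes, as it was for the 10 summed macrophage and monocyte markers, at 1533 to 3348 TPM in Usp22-KOA samples, 9547, 9363 and 5481 TPM in Usp22-KOB samples and 2090.2 to 3165 TPM in WT samples. All 10 of these rose in Usp22-KOB, and their part was not tested.

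**Figure D4:**
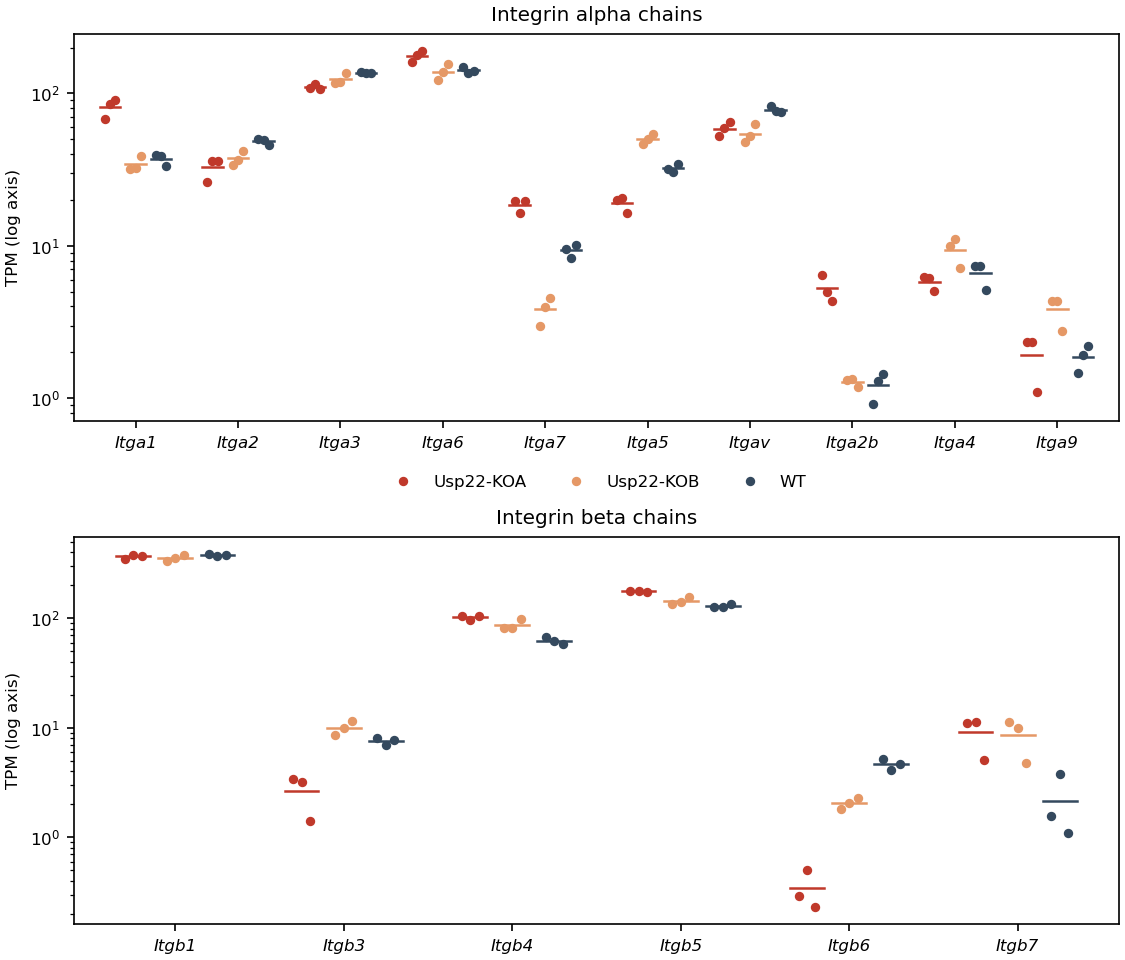
TPM per sample (log axis) of the 10 tested integrin alpha and 6 tested integrin beta chains; points are samples and bars group means, n = 3 each. Itga5 and Itga7 have WT between the knockouts, Itgb6 is lowest in Usp22-KOA and lower in Usp22-KOB than in WT, and the 3 groups of Itgb1 overlap.

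Itgb1, the common beta chain that pairs with most alpha chains here, was the most abundant integrin mRNA. It was at 352, 379 and 375 TPM in Usp22-KOA samples, 335, 353 and 383 TPM in Usp22-KOB samples and 384, 370.4 and 378 TPM in WT samples. The groups overlapped, with log2 differences from WT of -0.04 ± 0.06 in Usp22-KOA (95% interval -0.16 to 0.09) and -0.08 ± 0.06 in Usp22-KOB (95% interval -0.21 to 0.05). After quantile normalization Itgb1 was called lower in Usp22-KOA (-0.17, adjusted p = 0.0284). Itgb4, the hemidesmosome beta chain, rose in both knockouts, at 105, 97.6 and 105 TPM in Usp22-KOA samples, 80.9, 81.5 and 99.4 TPM in Usp22-KOB samples and 67.1, 62.1 and 58.4 TPM in WT samples. All knockout samples were above all WT samples, and the log2 differences were 0.71 ± 0.09 in Usp22-KOA (adjusted p = 0.000132) and 0.47 ± 0.09 in Usp22-KOB (adjusted p = 0.00338). Itgb5, a vitronectin receptor chain, was at 179, 179 and 173 TPM in Usp22-KOA samples, 135, 139.9 and 158 TPM in Usp22-KOB samples and 128, 127 and 135 TPM in WT samples. It rose by 0.44 ± 0.06 in Usp22-KOA (adjusted p = 0.000299) and differed by 0.14 ± 0.06 in Usp22-KOB (adjusted p = 0.101).

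Itgb6, the epithelial beta chain that activates latent TGF-beta with Itgav (chromosome 2, 60598292 to 60722643), fell in both knockouts. It was at 0.291, 0.501 and 0.233 TPM in Usp22-KOA samples, 1.81, 2.07 and 2.28 TPM in Usp22-KOB samples and 5.19, 4.10 and 4.72 TPM in WT samples. The 3 groups did not overlap, and the means were 7.32% of WT in Usp22-KOA and 44.1% of WT in Usp22-KOB. Its log2 difference from WT was -2.08 ± 0.14 in Usp22-KOA (adjusted p = 3.86e-06) and -0.89 ± 0.14 in Usp22-KOB (adjusted p = 0.00167), and the difference between Usp22-KOA and Usp22-KOB was -1.19 ± 0.14 (adjusted p = 0.000171). Itgb3, which pairs with Itgav and Itga2b, was at 3.42, 3.19 and 1.41 TPM in Usp22-KOA samples, 8.67, 9.97 and 11.5 TPM in Usp22-KOB samples and 8.12, 7.04 and 7.72 TPM in WT samples. Itgb3 fell by 1.28 ± 0.22 in Usp22-KOA (adjusted p = 0.000904), in contrast to its partner Itga2b, and its difference in Usp22-KOB was 0.35 ± 0.22 (adjusted p = 0.241, 0.0431 without Usp22-KOA replicate 3). Itgb8, a further partner of Itgav below the filter, was at 0.156 to 0.344 TPM in Usp22-KOA samples, 0.224 to 0.599 TPM in Usp22-KOB samples and 0.264 to 0.910 TPM in WT samples.

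Itgb7, a leukocyte beta chain that pairs with Itga4 in gut homing, was at 11.0, 11.3 and 5.13 TPM in Usp22-KOA samples, 11.4, 9.90 and 4.75 TPM in Usp22-KOB samples and 1.55, 3.80 and 1.10 TPM in WT samples. All knockout samples were above all WT samples, with replicate 3 lowest in each group. It rose by 1.71 ± 0.41 in Usp22-KOA (adjusted p = 0.00592) and by 1.64 ± 0.41 in Usp22-KOB (adjusted p = 0.0130, 0.0501 without Usp22-KOB replicate 1). The 11 summed T and NK cell markers in the table were at 102, 75.5 and 44.2 TPM in Usp22-KOA samples, 65.7, 52.4 and 24.3 TPM in Usp22-KOB samples and 17.5, 17.6 and 9.54 TPM in WT samples, and also had replicate 3 lowest in each group. Of the 9 tested ones, 7 rose in Usp22-KOA and 6 in Usp22-KOB against WT. The pan-leukocyte and mast cell sums given above had replicate 3 lowest in each group as well. The part of any of these cells in the Itgb7 result was not tested.

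**Figure D5:**
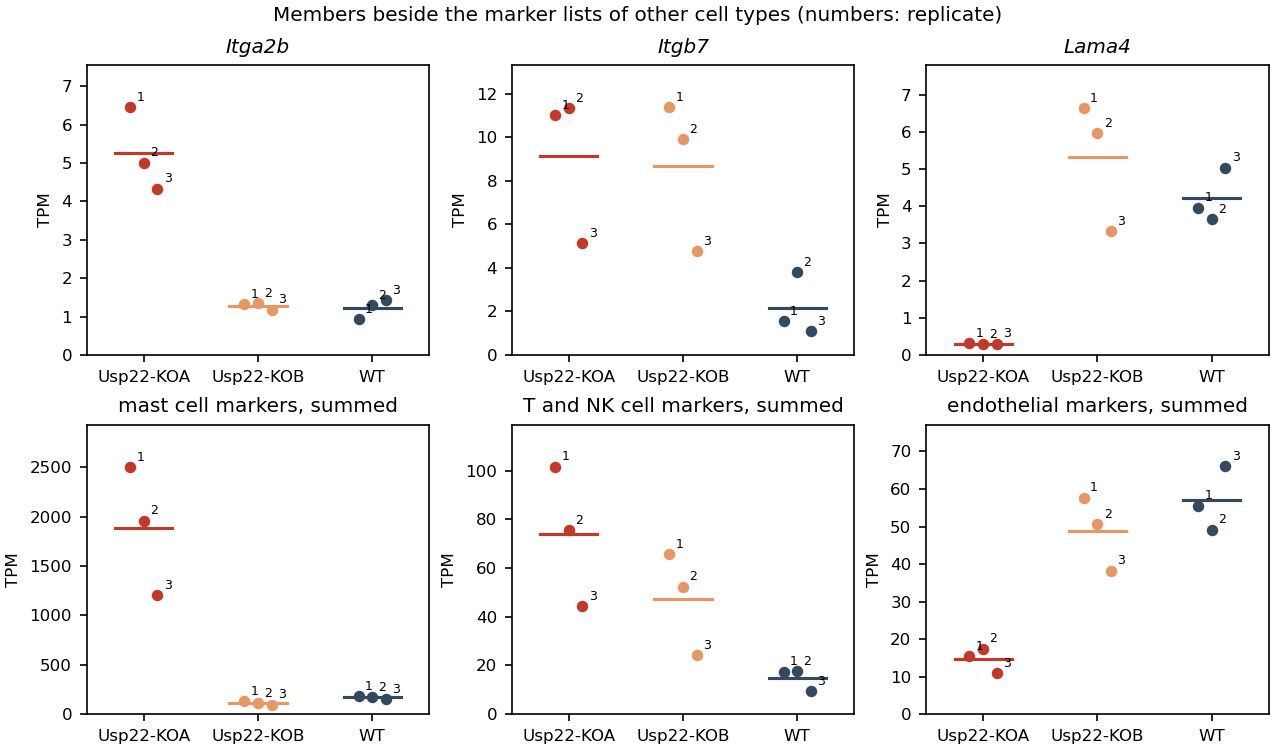
TPM per sample of Itga2b, Itgb7 and Lama4 (upper row) above the summed TPM of the mast cell, T and NK cell and endothelial marker lists (lower row) for Usp22-KOA, Usp22-KOB and WT; numbers are replicates and bars group means. Itga2b and the mast cell sum are highest in Usp22-KOA, Itgb7 and the T and NK cell sum are higher in both knockouts than in WT, and Lama4 and the endothelial sum are lowest in Usp22-KOA.

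Other genes of the pathway were taken from lists chosen by function. Of all tested genes, 29.4% were higher and 26.9% lower in Usp22-KOA, and 18.7% higher and 18.4% lower in Usp22-KOB. Of 15 other integrin ligands, 12 were tested, with 3 higher and 9 lower in Usp22-KOA and 4 higher and 4 lower in Usp22-KOB. The median log2 difference of the 12 was -1.35 in Usp22-KOA against WT and 0.06 in Usp22-KOB against WT. Spp1, osteopontin, averaged 5266 ± 246 TPM in Usp22-KOA, 8526 ± 992 TPM in Usp22-KOB and 14024 ± 354 TPM in WT (SD, n = 3 each), and fell by 1.41 ± 0.08 in Usp22-KOA and by 0.72 ± 0.08 in Usp22-KOB (limma adjusted p = 1.08e-06 and 0.000206). Cyr61, a matricellular ligand, stood at 11.5% of the WT mean in Usp22-KOA and 31.6% in Usp22-KOB, and Mfge8, which binds integrins of Itgav, at 39.7% in Usp22-KOA and 59.9% in Usp22-KOB. Both genes fell in both knockouts, Cyr61 with limma adjusted p = 1.82e-08 in Usp22-KOA and 1.51e-06 in Usp22-KOB, and Mfge8 with 1.98e-07 in Usp22-KOA and 1.90e-05 in Usp22-KOB. Fbn1, fibrillin, and Tgfb1 had opposite calls, with log2 differences from WT for Fbn1 of -2.44 ± 0.23 in Usp22-KOA and 0.95 ± 0.23 in Usp22-KOB, and for Tgfb1 of -0.73 ± 0.12 in Usp22-KOA and 0.54 ± 0.12 in Usp22-KOB. Fbn1 and the fibroblast marker sums given above had the same order of groups, and the part of such cells was not tested. Ctgf fell in both, to 36.1% of the WT mean in Usp22-KOA and 79.8% in Usp22-KOB.

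Of 24 other basement membrane components, 14 were tested, with 3 higher and 7 lower in Usp22-KOA and 2 higher and 3 lower in Usp22-KOB. Among all genes 56.3% passed in Usp22-KOA and 37.1% in Usp22-KOB. Smoc1, a calcium-binding matrix protein, was at 0.394, 0.203 and 0.138 TPM in Usp22-KOA samples, 0.591, 0.396 and 0.558 TPM in Usp22-KOB samples and 22.1, 19.4 and 21.6 TPM in WT samples. Its log2 difference from WT was -4.15 ± 0.13 in Usp22-KOA (adjusted p = 5.81e-08) and -3.86 ± 0.13 in Usp22-KOB (adjusted p = 3.82e-07). Col7a1, the anchoring fibril collagen beneath hemidesmosomes, was at 11.1% of the WT mean in Usp22-KOA (-2.13 ± 0.17, adjusted p = 1.03e-05) and 77.2% in Usp22-KOB (-0.32 ± 0.17, adjusted p = 0.176). Col18a1 and Ntn4, which binds laminins, likewise fell in Usp22-KOA, by 1.02 ± 0.08 and 1.27 ± 0.09, and did not pass in Usp22-KOB. Col15a1 fell by 1.65 ± 0.19 in Usp22-KOA and rose by 0.65 ± 0.19 in Usp22-KOB. Sparc rose by 0.80 ± 0.11 in Usp22-KOB and did not pass in Usp22-KOA (-0.22 ± 0.11).

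Of 11 other laminin receptors and linkers, 10 were tested, with 4 higher and 4 lower in Usp22-KOA and 1 higher and 4 lower in Usp22-KOB. The shares of all genes that passed were 56.3% in Usp22-KOA and 37.1% in Usp22-KOB. Bcam, the Lutheran receptor for Lama5 laminins, was at 10.8, 9.63 and 9.42 TPM in Usp22-KOA samples, 51.0, 49.8 and 51.2 TPM in Usp22-KOB samples and 99.3, 109.6 and 94.9 TPM in WT samples. The 3 groups did not overlap, and Bcam fell by 3.22 ± 0.07 in Usp22-KOA (adjusted p = 1.17e-08) and by 0.98 ± 0.07 in Usp22-KOB (adjusted p = 2.06e-05). Dmd, dystrophin, fell to 5.38% of the WT mean in Usp22-KOA and 26.2% in Usp22-KOB. Dag1, the dystroglycan that binds laminin, fell by 0.41 ± 0.08 in Usp22-KOA and 0.26 ± 0.08 in Usp22-KOB. Pomt1 rose by 0.41 ± 0.10 in Usp22-KOA and did not pass in Usp22-KOB (-0.13 ± 0.10). Utrn, utrophin, fell by 0.42 ± 0.13 in Usp22-KOA, and its difference was -0.33 ± 0.13 in Usp22-KOB (adjusted p = 0.0672, 0.0129 without Usp22-KOB replicate 3). The Utrn difference of -0.09 ± 0.13 between Usp22-KOA and Usp22-KOB did not pass (adjusted p = 0.587).

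Across all genes 56.3% passed in Usp22-KOA and 37.1% in Usp22-KOB. Of 5 hemidesmosome partners, 4 were tested, and 2 rose and 0 fell in each knockout. The 2 are tetraspanins: Cd9 was at 799 ± 45.6 TPM in Usp22-KOA, 728 ± 28.3 TPM in Usp22-KOB and 496 ± 28.8 TPM in WT (SD, n = 3 each), and Cd151, which binds laminin-binding integrins, at 252 ± 11.9 TPM in Usp22-KOA, 246 ± 25.2 TPM in Usp22-KOB and 205 ± 10.6 TPM in WT. Plec and Dst, the remaining tested partners, passed in neither knockout, and Col17a1 stood below the filter. All 24 genes of the adhesion plaque, the cytoplasmic complex at the integrin tails, were tested. In Usp22-KOA 6 were higher and 9 lower (56.3% of all genes passed), and in Usp22-KOB 7 were higher and 4 lower (37.1%). Parva, which links integrin-linked kinase to actin, fell in both knockouts, by 0.29 ± 0.08 in Usp22-KOA and 0.82 ± 0.08 in Usp22-KOB. Its partner Lims1 rose in both, by 0.61 ± 0.09 in Usp22-KOA and 0.41 ± 0.09 in Usp22-KOB, and so did Tns2, a tensin, by 0.79 ± 0.10 in Usp22-KOA and 0.61 ± 0.10 in Usp22-KOB. Tns1, the related tensin, fell by 1.56 ± 0.13 in Usp22-KOA and rose by 0.46 ± 0.13 in Usp22-KOB. The scaffold Pxn rose by 0.71 ± 0.06 in Usp22-KOA and did not pass in Usp22-KOB (-0.12 ± 0.06), and the actin crosslinker Actn4 fell by 0.47 ± 0.05 in Usp22-KOA and did not pass in Usp22-KOB (-0.08 ± 0.05).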

How the data were processed

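The authors deposited 1 table of TPM values for 24493 genes in 9 samples. Salmon and DESeq2 are named with the build mm10 in the submitters' processing notes, without a role or version. The deposited TPM sum to 1000000 per library and keep no read depth, so precision rests on the spread between 3 samples a group. From them log2(TPM + 1) was computed, and the 13843 genes averaging 1 TPM or more were fitted in R 4.3.3 with limma 3.58.1 (lmFit, contrasts.fit, eBayes with trend), all 9 samples in 1 fit with a mean per group, which was tested on simulated data. Adjusted p-values follow Benjamini and Hochberg over all tested genes. Count models were not used because TPM are not counts. Usp22 also had an exact permutation test (scipy 1.17.1).

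The tested members are named, apart from 1 that, like 1 gene of a pathway list, is not reported here. From each pathway list, up to 4 genes are named that had the lowest adjusted p in both knockouts against WT, and up to 2 more for Usp22-KOA against Usp22-KOB. Members and lists were chosen with earlier results of these data known. Gene coordinates are from GENCODE M21 (GRCm38), matched by symbol, and promoters from RefSeq (GRCm38.p6). Alternatives were other pseudocounts, filters, scalings and designs, the replicate number as a block, and each sample left out.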

Additional observations from a re-analysis of the deposited data

Results flagged for a closer look

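The effects of the knockouts on Itga5 differed in direction. Itga5 fell in Usp22-KOA and rose in Usp22-KOB, both against WT, and the tested difference between Usp22-KOA and Usp22-KOB was -1.36 on the log2(TPM + 1) scale (limma adjusted p = 6.86e-06). Every Usp22-KOA sample was below, and every Usp22-KOB sample above, every WT sample. The part of fibroblasts in this result was not tested.

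The effects on Itga7 differed in direction as well. Itga7 rose in Usp22-KOA and fell in Usp22-KOB, with a tested difference of 2.03 between Usp22-KOA and Usp22-KOB (limma adjusted p = 5.75e-06), and again the 3 groups did not overlap.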

How the results depend on the processing

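When the 6 knockout samples formed 1 group, 7 of 28 members passed for both knockouts against WT (2946 of all genes), against 20 of 28 (6920 of all genes) with a mean per knockout. Leaving out 1 sample gave 17 to 21 members for both knockouts (40.3% to 53.3% of all tested genes) and 22 to 23 for Usp22-KOA (50.3% to 59.3%). It gave 8 to 17 for Usp22-KOB (26.9% to 40.5%) and 16 to 20 for Usp22-KOA against Usp22-KOB (42.8% to 53.4%). The other alternatives, the count of 7 aside, gave 16 to 22 for both knockouts (37.0% to 54.3%) and 19 to 26 for Usp22-KOA (42.9% to 60.4%). They gave 8 to 14 for Usp22-KOB (26.4% to 42.2%) and 15 to 21 for Usp22-KOA against Usp22-KOB (37.6% to 56.0%). Of the called members, 21 of 23 in Usp22-KOA, 7 of 11 in Usp22-KOB and 14 of 20 in Usp22-KOA against Usp22-KOB passed under each alternative that tested them. For both knockouts against WT, 7 of 20 did, where the 6 knockout samples as 1 group were among the alternatives. Lama5, Lamc1 and Nid2 lost that call on leaving out single samples as well. In every comparison 0 called members changed direction. The filter at a mean of 5 TPM tested 23 of the 28 members. It left out 4 of the 21 in Usp22-KOA, 2 of the 7 in Usp22-KOB, 3 of the 14 between the knockouts and 2 of the 7 for both knockouts. Whether the replicate numbers pair the samples was not settled. Deviations from the group means correlated at -0.12 to 0.28 for same-numbered samples and at -0.23 to 0.20 for others. Between Usp22-KOA and Usp22-KOB, same-numbered samples gave 0.19, 0.077 and 0.28, and others -0.23 to 0.10. With the replicate block 20 members passed for both knockouts (48.4% of all genes) and 23 for Usp22-KOA (54.8%). It gave 12 for Usp22-KOB (34.9%) and 18 for Usp22-KOA against Usp22-KOB (50.0%). An alternative with only the groups compared gives no other value for both knockouts. No depth can be given.

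Log2 differences that changed sign had not passed the test. Between Usp22-KOA and Usp22-KOB, quantile normalization gave Hspg2 -0.032, Itgb1 -0.090 and Cd151 -0.072. A pseudocount of 5 gave Itga7 0.0082 for both knockouts, and Itga9 in Usp22-KOA was -0.011 with a pseudocount of 0.1 and -0.0085 without Mir6236. Leaving out 1 sample moved Itga9 in Usp22-KOA between -0.11 and 0.23, and Itga4 for both knockouts between -0.0032 and 0.23. In Usp22-KOB it moved Agrn between -0.091 and 0.095, Itga2b between -0.056 and 0.11 and Itga6 between -0.13 and 0.054. Between Usp22-KOA and Usp22-KOB it moved Itgb7 between -0.26 and 0.41, Cd151 between -0.0052 and 0.12 and Utrn between -0.17 and 0.036. The cause was not tested.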
